A study of Homo sapiens with 3 samples.

Results

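The genes of the proteasome were followed through 3 RNA sequencing libraries of HEK 293T cells, a human embryonic kidney line. They were taken from the table of read counts by symbol: PSMA to PSMG followed by a number, without 2 inducible subunits of the immunoproteasome. This gave 47 of 57268 rows, under 46 symbols, because PSMA2 stands in a second row for a read-through model. By family, 18 rows are core subunits (PSMA and PSMB) and 20 are regulatory (PSMC and PSMD). Of these 20, 3 encode chaperones that build the regulatory particle. Another 4 are activators (PSME), 1 is an inhibitor (PSMF1) and 4 are assembly chaperones (PSMG). The study asked how the splicing factor SRSF9 affects adenosine-to-inosine editing at sites specific to the deaminase ADAR2. The control library came from wild-type cells with no overexpression, the next from cells with ADAR2 overexpression only, and the last from cells with overexpression of ADAR2 and SRSF9. There was 1 library per group, so no difference below has a replicate check and no p-value is given. No group received SRSF9 alone, and the sources used here name no vector, promoter or time after transfection, so effects of either protein cannot be told apart from those of overexpression itself.

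The proteasome is the protease that degrades proteins tagged with ubiquitin in the cytosol and nucleus. Its core particle is a barrel of stacked rings, with outer rings of alpha subunits that gate the channel and inner rings of beta subunits, some of which cut peptide bonds. A regulatory particle caps the barrel: its base holds a ring of ATPases that unfold the substrate, and its lid removes ubiquitin. Ring subunits are needed in equal number, and dedicated chaperones put the rings together. When proteasome activity is low, the transcription factor NFE2L1 raises the genes of the subunits together through antioxidant response elements, whose core is TGACNNNGC.

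Because of this route, the sequence upstream of the start sites of the proteasome genes was searched for that core. CCAAT, the ETS core CCGGAAG and the TATA box core TATAAA were searched for as well. Whether all the genes share this route was not tested. RefSeq windows on GRCh38.p14, of which the 250 bases before the start site were used, were matched by symbol for 40 of the 46 symbols, and 7 of these had more than 1 window. Both strands were searched, a gene was counted when any of its windows held the motif, and matches of different motifs were allowed to overlap. TGACNNNGC was present for 12 of the 40 proteasome genes (30%), against 13.2% of 27305 genes with a window. CCGGAAG was present for 11 (27.5%, against 10.2%), CCAAT for 18 (45%, against 37.0%) and TATAAA for 5 (12.5%, against 13.0%). The windows below are those of the most abundant measured gene per kilobase that held TGACNNNGC in each of 4 families, on the strand of the gene from 5′ to 3′. Capitals mark TGACNNNGC and CCAAT, the latter as ATTGG where it lies on the opposite strand. PSMB3 (chr17:38752491-38752740, plus strand) encodes a structural beta subunit, PSMD3 (chr17:39980557-39980806, plus strand) a lid subunit, PSME1 (chr14:24135944-24136193, plus strand) a subunit of the ring-shaped activator and PSMG1 (chr21:39183452-39183701, minus strand) a chaperone of the alpha ring.
PSMB3: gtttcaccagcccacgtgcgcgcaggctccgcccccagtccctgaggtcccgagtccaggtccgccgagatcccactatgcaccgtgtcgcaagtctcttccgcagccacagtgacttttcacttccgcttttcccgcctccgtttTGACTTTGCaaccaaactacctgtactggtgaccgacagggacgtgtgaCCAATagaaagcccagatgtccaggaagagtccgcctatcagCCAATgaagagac
PSMD3: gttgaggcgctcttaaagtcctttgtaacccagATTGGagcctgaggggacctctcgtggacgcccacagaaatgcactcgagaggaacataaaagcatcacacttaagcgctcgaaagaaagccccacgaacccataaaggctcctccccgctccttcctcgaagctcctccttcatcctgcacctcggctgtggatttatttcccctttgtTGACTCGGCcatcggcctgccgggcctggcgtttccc
PSME1: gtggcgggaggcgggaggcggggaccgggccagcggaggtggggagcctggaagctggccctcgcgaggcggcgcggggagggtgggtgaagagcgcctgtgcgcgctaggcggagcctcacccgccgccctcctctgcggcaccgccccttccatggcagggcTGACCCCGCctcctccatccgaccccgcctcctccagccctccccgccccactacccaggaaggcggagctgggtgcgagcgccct
PSMG1: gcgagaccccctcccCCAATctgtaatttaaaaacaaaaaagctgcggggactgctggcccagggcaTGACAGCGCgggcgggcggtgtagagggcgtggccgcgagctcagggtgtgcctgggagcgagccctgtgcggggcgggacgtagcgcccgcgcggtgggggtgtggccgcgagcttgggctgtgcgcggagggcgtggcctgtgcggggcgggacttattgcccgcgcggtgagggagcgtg
In PSMD3 the element TGACTCGGC ends 29 bases before the start site, in PSME1 TGACCCCGC ends 78 bases before it, in PSMB3 TGACTTTGC 96 bases and in PSMG1 TGACAGCGC 175 bases. The match is a description of these letters and says nothing of binding.

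The library totals were 152878282 reads in the control, 132887974 with ADAR2 and 97875935 with ADAR2 and SRSF9. ADARB1, which encodes ADAR2, had 17547, 2161556 and 1308303 reads, and SRSF9 had 57545, 49544 and 1753179, as the labels say. All 9 markers of HEK293 lines were measured, against 0 of 3 blood markers, 1 of 4 fibroblast markers (COL1A1) and 1 of 3 markers of other epithelial lines (CDX2), with KRT5 at 0 reads. The summed level of the HEK293 markers was 785, 794 and 754 CPM, the counts scaled to 1000000 reads. The last library stood apart in HBB and HBD, erythroid globin genes, which had 36744 and 90665 reads there against 154 and 476 with ADAR2 alone. Whether this difference has a part in the values below was not tested.

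Proteasome genes took nearly the same share of reads in the 3 libraries. The 47 rows took 732831 reads in the control, 635811 with ADAR2 and 466609 with both proteins, which is 0.479%, 0.478% and 0.477% of each library. In CPM scaled by the trimmed mean of M-values (TMM), the sums were 4744, 4736 and 4867. The summed level was 0.998 times the control with ADAR2 (95% counting interval 0.995 to 1.002) and 1.028 times the ADAR2 level with both proteins (1.024 to 1.032). The direction of the second value rests on the scaling, since the plain share of the library did not rise with it. These intervals cover counting error only, and in pooled cells less RNA per cell and fewer cells of a kind cannot be told apart.

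Gene by gene, a row was called measured at a mean of 1 CPM or more over the libraries, which left 42 of the 47 rows and 16072 genes in all. A gene counted as apart from 1.2-fold upwards, higher or lower, provided that its interval left out 1. For ADAR2 against control 0 of 42 proteasome genes met this, where 13.9% of all measured genes did. With both proteins against ADAR2 it was 0 of 42, where 13.9% of all did, and with both proteins against control 0 of 42, where 26.5% of all did. Abundance bears on such shares: among genes with a mean of 10 CPM or more, which include 39 of the 42, the shares called were 7.61%, 4.31% and 18.5%. At 1.5-fold the proteasome count was likewise 0 in each comparison, against 1.26%, 3.39% and 3.99% of all genes. The comparisons share libraries, so the 3 counts are not separate pieces of evidence.

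Ratios of proteasome genes stayed short of 1.2-fold, and most were within 1.1-fold. In ADAR2 against control 36 of the 42 (85.7%) were within 1.1-fold of the control, where 53.8% of all measured genes and 58.9% of those with a mean of 10 CPM or more were. With both proteins against ADAR2 the count was 39 of 42 (92.9%), against 66.2% and 80.6%. For both proteins against control it was 35 of 42 (83.3%), against 44.1% and 50.1%. Nearer to 1 the comparisons differed. In ADAR2 against control 11.9% of the 42 were within 1.02-fold and 45.2% within 1.07-fold. For genes with a mean of 10 CPM or more these shares were 12.6% and 42.6%, so the 42 were hardly closer to 1 at those limits. Within 1.07-fold the shares were 76.2% against 66.3% for both proteins against ADAR2, and 61.9% against 36.3% for both against control. The standard deviation of the log2 ratios across the 42 genes was 0.10, 0.07 and 0.10 in the 3 comparisons. It was 0.22, 0.26 and 0.30 across all measured genes. At 10 CPM or more it was 0.18, 0.20 and 0.25. Both of these sets hold ADARB1, SRSF9, HBB and HBD, each far from 0 in at least 1 comparison. In ADAR2 against control the quartiles were -0.10 and 0.10 for the 42, and -0.12 and 0.11 for genes at 10 CPM or more. In both proteins against ADAR2 they were 0.00 and 0.08, and -0.05 and 0.08. In both proteins against control they were -0.02 and 0.11, and -0.14 and 0.13. The median log2 ratio of the 42 was 0.02, 0.05 and 0.04, beside 0.00, 0.01 and -0.01 for all genes. Scaled by plain library totals, the last 2 proteasome medians were 0.0011 and -0.0074, beside -0.033 and -0.051 for all genes. The proteasome median lay above that of all genes by 0.034 and 0.043. A change of scaling shifts the log2 ratios of all genes alike, so this gap is the same under either and is not checked by it.

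**Figure D1:**
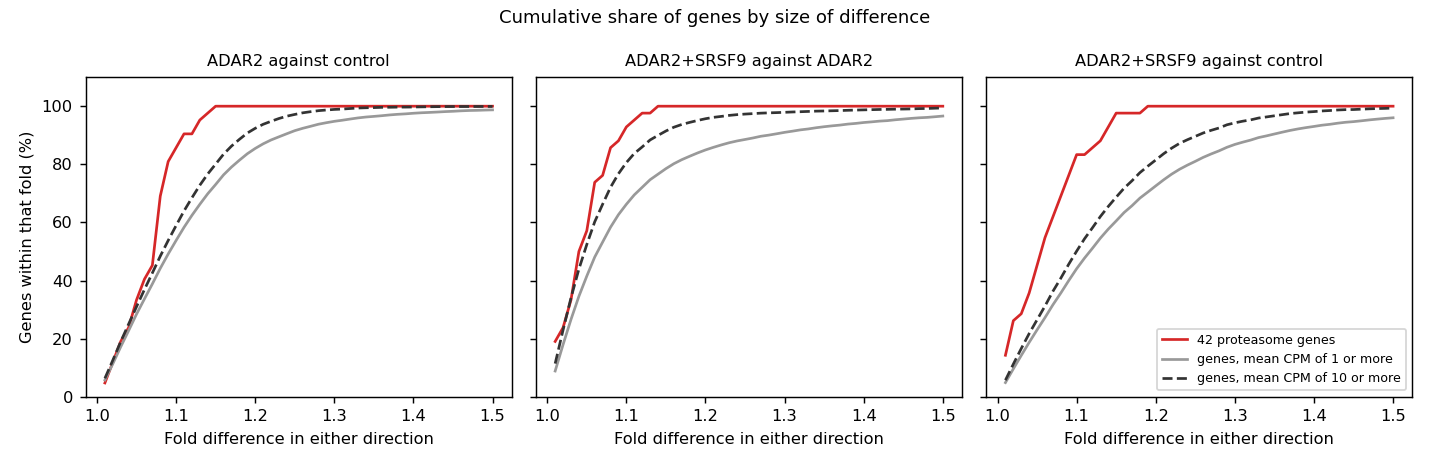
Cumulative share of genes (%, vertical) whose ratio lies within a given fold of 1 in either direction (horizontal, 1.01 to 1.5), for 42 measured proteasome genes (red), all genes with a mean of 1 CPM or more (grey) and genes with a mean of 10 CPM or more (dashed), 1 panel per comparison. At 1.1-fold the red curve stands at 85.7%, 92.9% and 83.3%, above both other curves, and it reaches 100% before 1.2-fold in each panel. In the panel of ADAR2 against control the red and dashed curves run close together up to 1.07-fold, at 45.2% and 42.6% there.

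Most of these small differences were larger than counting error at this depth. In ADAR2 against control the interval excluded 1 for 34 of the 42 genes, 17 higher (all genes 31.5%) and 17 lower (32.4%). With both proteins against ADAR2, 23 were higher (27.5%) and 5 lower (23.0%), and against control 20 were higher (33.4%) and 8 lower (35.3%). Depth bears on this: of the 10362 genes with a mean of 10 CPM or more, 3720 were higher and 4189 lower in ADAR2 against control. In the other 2 comparisons they were 3253 and 2475, then 3815 and 4235. For the 39 proteasome genes at that level the counts were 15 and 17, 23 and 4, and 19 and 8. With both proteins against ADAR2, 31 of the 42 log2 ratios were above 0 and 11 below, where 53.7% of all genes were above 0, and the split became 22 and 20 with plain library totals. Against control it was 27 and 15 (49.0% of all genes above 0), and 21 and 21 with plain totals. Plain totals lowered the median of all genes as well, to -0.033 for both proteins against ADAR2 and -0.051 against control. In ADAR2 against control 22 were above 0 and 20 below (49.8% of all genes above 0).

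**Figure D2:**
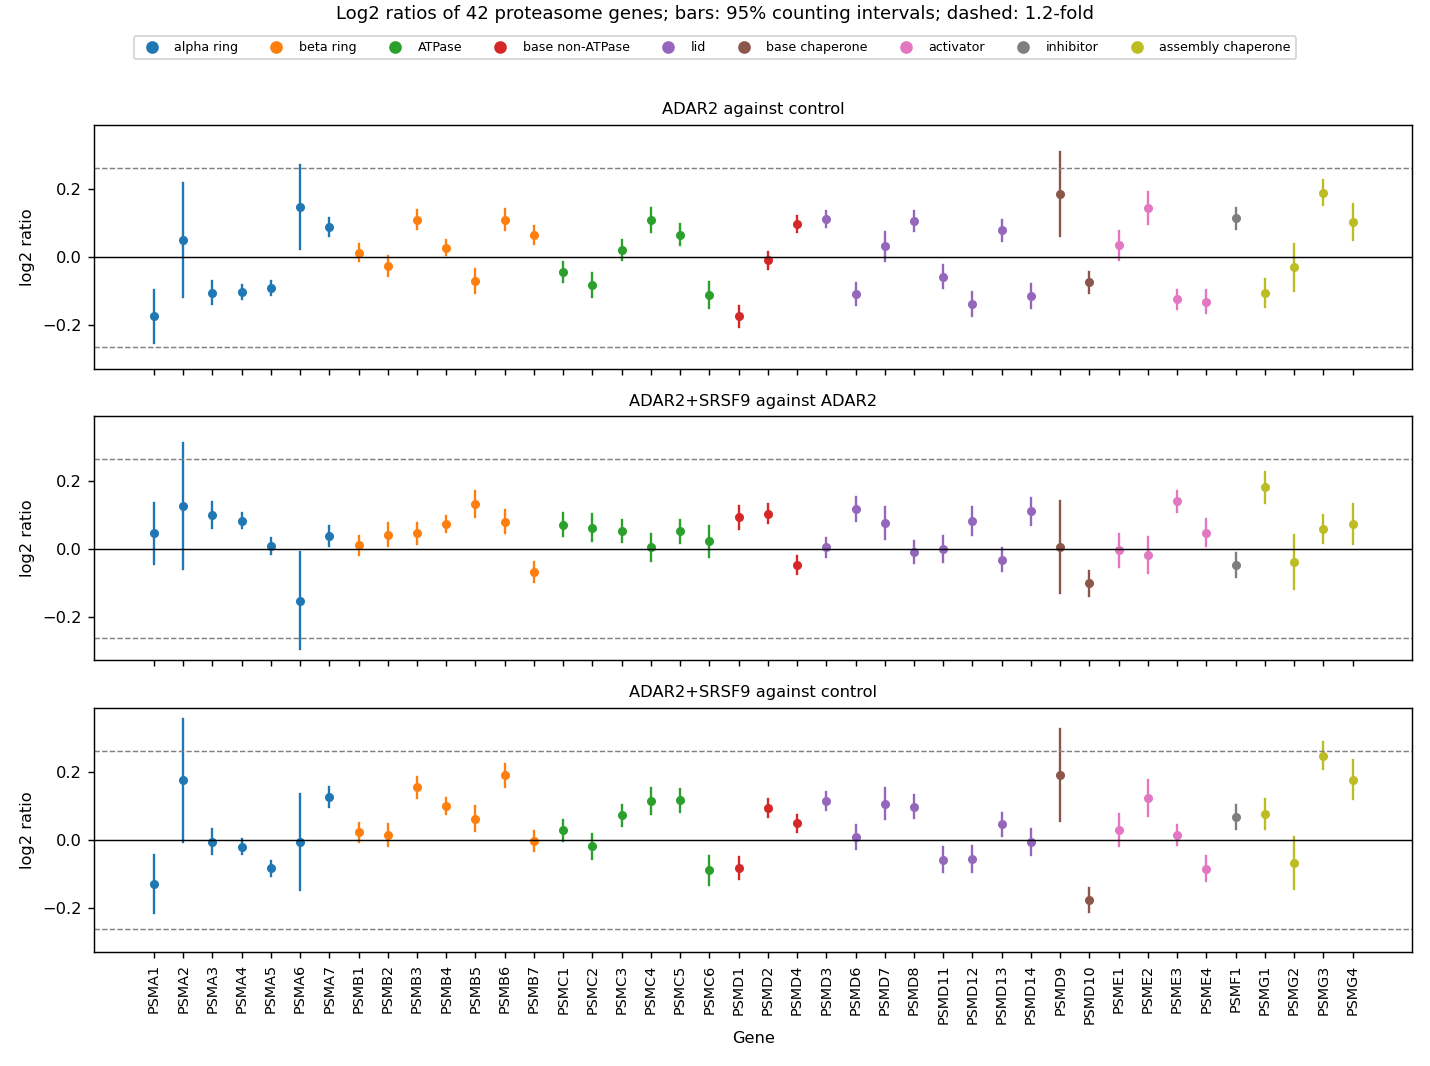
Log2 ratio (vertical) of each of 42 measured proteasome genes (horizontal, coloured by role) in the 3 comparisons, 1 panel each. Bars are 95% counting intervals from 1 library per group and dashed lines mark 1.2-fold. Every point lies between the dashed lines. The extremes are PSMD1 (-0.17) and PSMG3 (0.19) in ADAR2 against control, PSMA6 (-0.15) and PSMG1 (0.18) in both proteins against ADAR2, and PSMD10 (-0.18) and PSMG3 (0.25) in both proteins against control.

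The alpha ring was the part of the core with the lower sum in the ADAR2 library. Its 9 rows summed to 840 CPM in the control, 805 with ADAR2 and 833 with both proteins, ratios of 0.959 (0.951 to 0.966) for ADAR2 against control and 1.034 (1.025 to 1.044) for both against ADAR2. PSMA3 had 103, 95.8 and 103 CPM, PSMA4 277, 258 and 273 CPM, and PSMA5 279, 262 and 263 CPM, so all 3 were lowest with ADAR2. With the GC trend of all protein-coding genes removed, the median log2 ratio of the 7 measured alpha subunits in ADAR2 against control was 0.04 in place of -0.09, and PSMA3, PSMA4 and PSMA5 stood at 0.029, 0.018 and 0.080. PSMA7 went the other way, with 151, 160 and 164 CPM. PSMA1, a further ring subunit, had 19.6, 17.4 and 17.9 CPM, 0.886 times the control with ADAR2 (0.839 to 0.936) and 0.914 times with both proteins (0.861 to 0.971). PSMA6 had 6.95, 7.70 and 6.93 CPM from 1074, 1034 and 664 reads. Its ratio was 1.11 for ADAR2 against control (1.02 to 1.21) and 0.899 for both against ADAR2 (0.815 to 0.992), so it was high in the middle library alone. PSMA2 had 612, 551 and 429 reads, and each of its 3 intervals included 1.

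The beta ring summed to 1058, 1085 and 1116 CPM. Against control its ratio was 1.026 with ADAR2 (1.018 to 1.033) and 1.055 with both proteins (1.047 to 1.063). The catalytic subunits differed in which library was highest. PSMB6, which carries the caspase-like site, had 112, 121 and 128 CPM, lowest in the control and highest in the last library, and stood at 1.08 times the control with ADAR2 (1.06 to 1.10) and 1.14 times with both proteins (1.11 to 1.17). PSMB5, the chymotrypsin-like subunit and the main target of bortezomib, had 96.6, 92.1 and 101 CPM, 1.10 times higher with both proteins than with ADAR2 (1.07 to 1.13). PSMB7, the trypsin-like subunit, had 161, 169 and 161 CPM, 0.954 times the ADAR2 level with both proteins (0.934 to 0.974). Among structural subunits PSMB3 had 140, 152 and 156 CPM and PSMB4 245, 250 and 263 CPM, both highest in the last library. PSMB1 had 172, 174 and 175 CPM with each interval including 1, and PSMB2 130, 127 and 131 CPM.

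Core subunits that replace a constitutive one in special tissues had a mean under 1 CPM. PSMB10 takes the place of PSMB7 in the immunoproteasome and had 84, 75 and 93 reads, under 1 CPM in each library. With both proteins it was at 1.73 times the ADAR2 level (1.27 to 2.39) and 1.78 times the control (1.31 to 2.43), from fewer than 100 reads a library. PSMB7 exceeded it 369-fold in the control, 375-fold with ADAR2 and 206-fold with both proteins, per kilobase of transcript. PSMB10 shares 34.8% of its exon bases with another protein-coding model on the same strand, and the part of this in the fold was not tested. PSMB11, which replaces PSMB5 in the cortical epithelium of the thymus, had 15, 14 and 5 reads, and PSMB5 exceeded it 1622-fold, 1439-fold and 3155-fold. PSMA8, the counterpart of PSMA7 in male germ cells, had 2, 1 and 0 reads, at or below the floor of 3 reads, so no fold is given. The second PSMA2 row had 8, 4 and 4 reads.

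The ATPases of the base, which form the unfolding ring, summed to 631, 631 and 652 CPM. PSMC4 had 85.7, 92.5 and 92.8 CPM and PSMC5 111, 116 and 120 CPM, both lowest in the control. PSMC6 had 75.0, 69.4 and 70.5 CPM, at 0.926 times the control with ADAR2 (0.901 to 0.951) and 0.940 times with both proteins (0.912 to 0.969), the only 1 of the 6 whose interval lay below 1 in the last comparison. PSMC1 had 132, 128 and 135 CPM, PSMC2 95.5, 90.3 and 94.2, and PSMC3 132, 134 and 139. No 2 libraries differed by more than 1.1-fold in any of the 6.

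Of the other base subunits, PSMD1 was the lowest of all measured members in ADAR2 against control. PSMD1, a large scaffold that holds a ubiquitin receptor, had 132, 117 and 125 CPM, with ratios of 0.886 to the control (0.868 to 0.905) and 1.07 for both proteins to ADAR2 (1.04 to 1.09). PSMD2, the other large scaffold, had 176, 174 and 187 CPM, highest in the last library. PSMD4, itself a ubiquitin receptor, had 216, 231 and 223 CPM, highest with ADAR2. With both proteins PSMD4 was at 0.967 times its ADAR2 level (0.950 to 0.984), among the 4 lowest ratios of that comparison.

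The lid subunits split evenly in ADAR2 against control, with 3 intervals above 1 and 4 below. PSMD3, PSMD8 and PSMD13 were above: PSMD3 had 179, 193 and 194 CPM, PSMD8 124, 133 and 132, and PSMD13 119, 126 and 123. PSMD6, PSMD11, PSMD12 and PSMD14 were below. With the GC trend removed, the standard deviation of the lid log2 ratios in that comparison was 0.046 in place of 0.105. PSMD3 and PSMD12 then changed sign, to -0.010 and 0.023, and no other lid gene did. PSMD14, the metalloprotease that cuts ubiquitin chains from the substrate, had 93.8, 86.6 and 93.5 CPM, lowest with ADAR2 and level in the other libraries. PSMD12 had 93.0, 84.6 and 89.4 CPM, at 0.910 times the control with ADAR2 (0.887 to 0.932). PSMD6 had 113, 105 and 114 CPM and was at 1.08 times its ADAR2 level with both proteins (1.06 to 1.11). PSMD11 had 107, 102 and 102 CPM and PSMD7, the partner of PSMD14, 63.1, 64.5 and 67.9.

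The chaperones that build the base differed from one another. PSMD10, an ankyrin repeat protein also known as gankyrin, had 116, 111 and 103 CPM and was the lowest measured member in both proteins against control, at 0.885 times (0.863 to 0.907). It was lower in the last library than with ADAR2 as well, at 0.931 times (0.908 to 0.955). With the GC trend removed, PSMD10 had a log2 ratio of -0.05 in place of -0.18 in both proteins against control, where PSMG2 had -0.11. PSMD9 had 6.96, 7.93 and 7.95 CPM from 1076, 1064 and 762 reads, at 1.14 times the control with ADAR2 (1.04 to 1.24) and with both proteins (1.04 to 1.25). PSMD5 had 118, 135 and 98 reads and was not measured by the CPM limit. Its ratio to control was 1.31 with ADAR2 (1.02 to 1.70) and 1.34 with both proteins (1.01 to 1.76), intervals that come close to 1.

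The activators open the core without ATP, and their sum was 361, 346 and 363 CPM. PSME1 and PSME2 form a mixed ring and are known for induction by interferon gamma. PSME1 had 57.9, 59.3 and 59.1 CPM, with each interval including 1. PSME2 had 47.0, 51.9 and 51.2 CPM, at 1.10 times the control with ADAR2 (1.07 to 1.14) and 1.09 times with both proteins (1.05 to 1.13). With the GC trend removed, the log2 ratios of PSME2 to control were 0.032 in place of 0.144 and -0.011 in place of 0.125. Per kilobase, PSME1 exceeded PSME2 1.52-fold in the control, 1.41-fold with ADAR2 and 1.43-fold with both proteins. PSME3, which forms a nuclear ring of 1 kind of subunit, had 157, 144 and 158 CPM, 0.918 times the control with ADAR2 (0.900 to 0.935) and 1.10 times the ADAR2 level with both proteins (1.08 to 1.12), so it was low in the ADAR2 library alone. PSME4, a large single-chain activator, had 99.6, 91.0 and 94.0 CPM, at 0.913 times (0.892 to 0.935) and 0.943 times (0.919 to 0.968) the control. PSMF1, which inhibits the core in vitro, had 108, 117 and 114 CPM, at 1.08 times the control with ADAR2 (1.06 to 1.11).

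The 4 assembly chaperones of the alpha ring had the highest summed ratio of the 5 families in both proteins against control, at 1.106 times (1.087 to 1.125), where core and regulatory sums were at 1.027 (1.021 to 1.033) and 1.021 (1.015 to 1.026). The direction of those last 2 values rests on the scaling. As a plain share of the library the core went from 0.192% to 0.191% and the regulatory family from 0.219% to 0.217%. The regulatory sum holds the 3 base chaperones, whose own sum was at 0.902 times the control (0.881 to 0.924). With the GC trend removed, the median log2 ratio against control was 0.106 for the assembly family (0.126 before). It was 0.081 for core (0.019 before) and 0.011 for regulatory (0.046 before). PSMF1 was at 0.106 (0.067 before) and the activators at 0.010 (0.022 before). The sum of the 4 assembly chaperones was 205, 213 and 226 CPM. PSMG3 had 75.3, 85.9 and 89.5 CPM and was the highest measured member in both comparisons with the control, at 1.14 times with ADAR2 (1.11 to 1.17) and 1.19 times with both proteins (1.15 to 1.22). PSMG4, its partner, had 37.9, 40.8 and 42.9 CPM and was at 1.13 times the control with both proteins (1.09 to 1.18). PSMG1 had 67.6, 62.9 and 71.2 CPM, at 0.930 times the control with ADAR2 (0.903 to 0.957) and at 1.13 times the ADAR2 level with both proteins (1.10 to 1.17), the highest ratio of that comparison. PSMG2, the partner of PSMG1, had 23.9, 23.4 and 22.8 CPM with each interval including 1.

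Levels per kilobase placed the proteasome among abundant transcripts. CPM was divided by the length of the longest protein-coding transcript in GENCODE v29, and the median of the 42 measured rows was 50.9, 51.4 and 53.2 CPM per kilobase, where that of 12900 measured protein-coding genes was 7.39, 7.31 and 7.31. In the control the 7 constitutive beta subunits, needed in equal number, ran from 30.8 (PSMB2) through 74.7 (PSMB5), 129 (PSMB6), 165 (PSMB7), 182 (PSMB3) and 186 (PSMB1) to 254 (PSMB4), an 8.26-fold span. The 6 ATPases ran from 29.7 (PSMC1) through 31.3 (PSMC2), 34.3 (PSMC6), 53.8 (PSMC4) and 70.1 (PSMC5) to 83.7 (PSMC3), a 2.82-fold span. The 8 subunits of the CCT chaperonin, another ring of equal parts, spanned 3.85-fold from 104 to 401. Lid genes ran from 21.1 (PSMD12) through 26.0 (PSMD11), 37.8 (PSMD7), 48.0 (PSMD14), 59.8 (PSMD13), 75.8 (PSMD6) and 78.3 (PSMD8) to 82.8 (PSMD3). PSMD4 stood at 160 beside 50.9 for PSMD2 and 39.8 for PSMD1. Activators ran from 14.0 (PSME4) and 33.5 (PSME2) to 46.6 (PSME3) and 51.0 (PSME1), PSMF1 stood at 25.3, and the assembly chaperones ran from 8.24 (PSMG4), 14.2 (PSMG2) and 31.4 (PSMG1) to 54.1 (PSMG3). The plot of levels by gene shows each of them in the 3 libraries. Length decides such values: with the union of all exons the medians were 26.9, 26.3 and 27.7, and the control spans were 4.45-fold for the beta subunits, 5.80-fold for the ATPases and 3.27-fold for CCT, so the order of the first and the second turned.

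**Figure D3:**
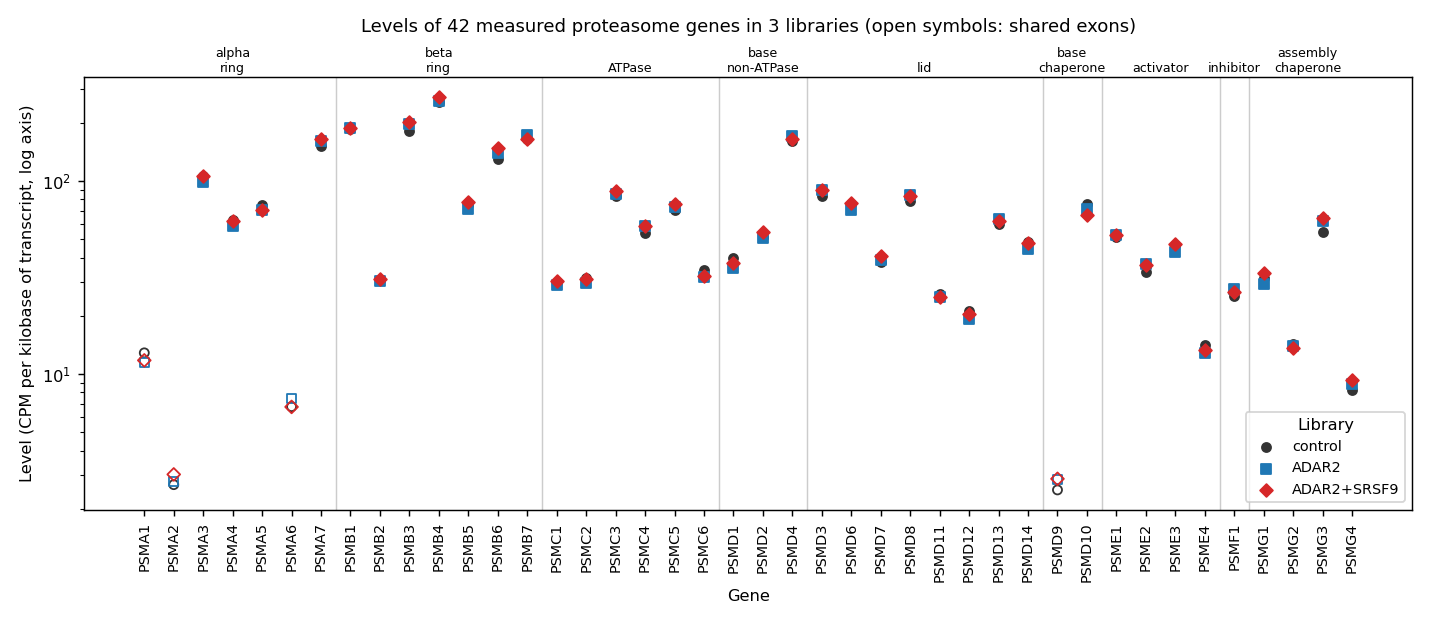
Level (CPM per kilobase of the longest protein-coding transcript, log axis) of 42 measured proteasome genes in the control (circles), ADAR2 (squares) and ADAR2 with SRSF9 (diamonds) libraries, grouped by role. Open symbols mark genes that share exon sequence with another protein-coding gene model on the same strand. The 3 libraries nearly coincide for each gene, while genes span from 2.50 (PSMD9) to 254 (PSMB4) in the control.

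Among the alpha subunits the levels fell into 2 separate ranges. PSMA4, PSMA5, PSMA3 and PSMA7 stood at 62.8, 74.8, 106 and 151 CPM per kilobase in the control, while PSMA1 stood at 12.8, PSMA6 at 6.76 and PSMA2 at 2.66. In GENCODE v29, each of the low 3 shares exon sequence with another protein-coding model on the same strand: 24.7% of the exon bases of PSMA1, 14.1% of PSMA6 and 14.6% of PSMA2, whose partner is the read-through row. PSMD9 (19.9% in 2 models, 2.50 CPM per kilobase) and PSMB10 (34.8%, 0.446 CPM per kilobase) share exons as well. In all 6 of the 47 rows did (12.8%, against 11.3% of protein-coding genes), with a median of 2.77 CPM per kilobase over the libraries against 51.9 for the other 41. Over all protein-coding genes the medians were 0.907 with sharing and 2.73 without. PSMD5 was low, at 0.222 CPM per kilobase, with no such partner in that release. The sources used here do not say how reads in shared exons were counted, and its part in the low levels was not tested. On the opposite strand, 75.8% of the exon bases of PSMC1, the lowest ATPase at 29.7 CPM per kilobase, overlap NRDE2, and 19.5% of those of PSMC5 (70.1) overlap FTSJ3.

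Among proteasome genes, those with GC-rich transcripts tended to lie above the control and those with AT-rich ones below it. Spearman's rho of log2 ratio and transcript GC, over the 39 with a mean of 10 CPM or more, was 0.79 in the ADAR2 library and 0.78 in the last library, each against the control. It was -0.24 between the last library and ADAR2. Over 10293 genes at that level the values were 0.77, 0.72 and 0.20, and genes of 1 library are not independent. The 13 proteasome genes of lowest GC content (36.8% to 45.8%) had a median log2 ratio of -0.10 with ADAR2, and the 13 of highest (53.1% to 58.8%) 0.11. After the trend of all protein-coding genes was subtracted, both medians were 0.03. In ADAR2 against control 11 of the 42 log2 ratios then had the other sign, 8 of them with an interval that had left out 1, and in both proteins against control 18 and 11. PSMC6 (36.8% GC) stood at 0.062 and PSMD10 (41.5%) at 0.055 in ADAR2 against control, where they were lower before. PSMG3 (58.8%) stood at 0.07 in place of 0.19 and PSMD1 (44.2%) at -0.08 in place of -0.17. For both proteins against control 11 genes turned from below to above 0 and 7 the other way. PSMC6, PSMD12 and PSME4 were among the 11, at 0.091, 0.12 and 0.044, as were PSMA3, PSMA4, PSMA5 and PSMD1 at 0.131, 0.100, 0.095 and 0.008. PSMG3 stood at 0.09 in place of 0.25. With the trend removed PSMA2 was past 1.2-fold by ratio alone in both proteins against control, at 0.323, though its interval had included 1. No other of the 42 was past it in any comparison. By ratio alone 9.73%, 14.4% and 17.2% of genes with a GC value were.

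**Figure D4:**
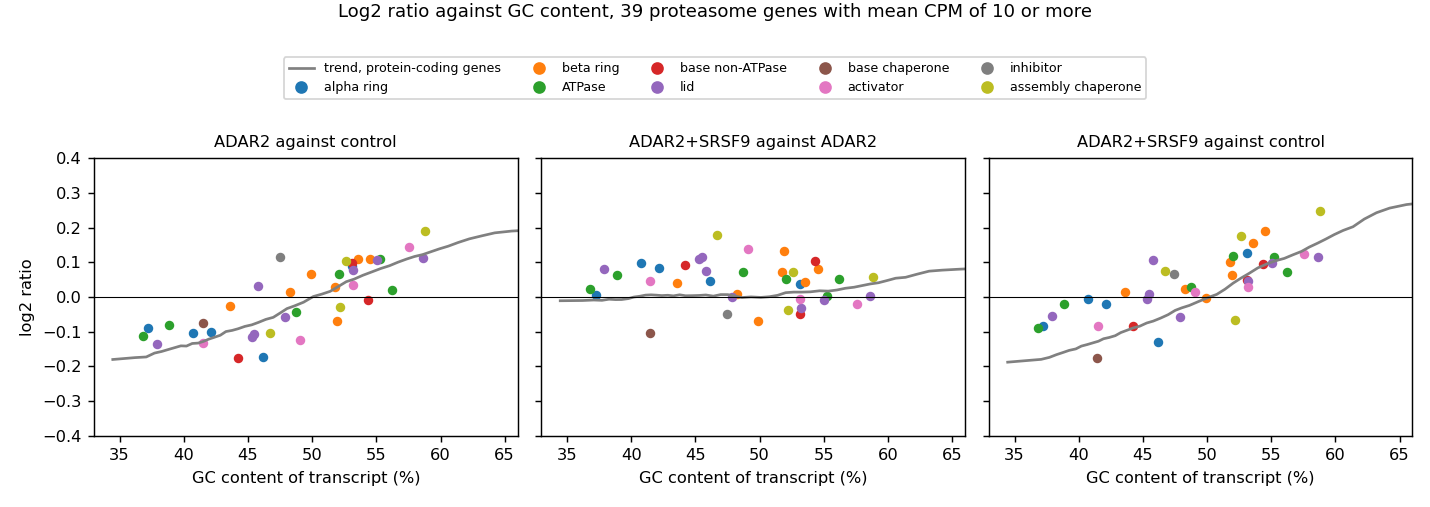
Log2 ratio (vertical) against GC content of the longest transcript (horizontal, %) for 39 proteasome genes with a mean of 10 CPM or more, coloured by role, with the smoothed median of protein-coding genes as a grey line, 1 panel per comparison. In both panels against control the points climb along the grey line (Spearman's rho 0.79 and 0.78), and in the middle panel they do not (-0.24).

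Genes that work with the proteasome but lie outside the families were described from lists. Of 10 partners, among them the core assembly factor POMP and the deubiquitinases USP14 and UCHL5, 0 were at 1.2-fold in any comparison, and their median log2 ratios were -0.13, 0.02 and -0.10. With the GC trend removed these medians were -0.01, 0.01 and -0.03. USP14 was farthest from 0 with ADAR2 against control, at -0.21 (-0.06 with the trend removed), and TXNL1, a thioredoxin-like protein bound to the regulatory particle, with both proteins, at -0.24 (-0.08). ADRM1, the ubiquitin receptor held by PSMD1, was at 0.15 and 0.22 against control and POMP at -0.16 and -0.12, and with the trend removed all 4 had the other sign, at -0.030, -0.036, 0.018 and 0.072. The 6 genes of the NFE2L1 route had medians of 0.01, 0.00 and -0.04. NFE2L1 itself had 21807, 19427 and 12927 reads, log2 ratios of 0.04, -0.10 and -0.07, and NFE2L2, its relative in the oxidative stress response, was lower at 1.2-fold against control with ADAR2 (-0.27) and with both proteins (-0.27). With the trend removed NFE2L1 was at -0.04, -0.12 and -0.17 in the 3 comparisons. NFE2L2 was then at -0.19 and -0.20 against control, short of 1.2-fold. Proteasome genes with TGACNNNGC upstream had a median log2 ratio of 0.03 in ADAR2 against control (11 measured) and those without it -0.04 (25 measured), with median GC contents of 52.1% and 46.2%. With both proteins against ADAR2 the medians were 0.04 and 0.06.

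Of 14 genes for ubiquitin, its activating enzymes and the shuttle factors that bring substrates to the proteasome, 13 were measured and DDI1 had 0 reads. ZFAND2A, a stress-inducible protein that binds the proteasome, was higher at 1.2-fold against control with ADAR2 (0.37, from 1397 and 1574 reads) and with both proteins (0.33). UBQLN2, a shuttle factor, was lower with both proteins against control (-0.30). With the GC trend removed ZFAND2A was at 0.32 and 0.26 and UBQLN2 at -0.21, and of these only the ADAR2 value of ZFAND2A stayed past 1.2-fold. UBB, which encodes polyubiquitin, was at 0.01 with ADAR2 against control. The 8 CCT chaperonin genes had 0 at 1.2-fold and medians of -0.07, 0.04 and -0.02, or -0.01, 0.04 and 0.03 with the trend removed.

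Pseudogenes of proteasome subunits had fewer reads for their library in the last library. Of 28 such rows 2 were measured and 4 had no read in any library. Together they had 3110, 2691 and 1616 reads, a ratio of 0.996 for ADAR2 against control (0.945 to 1.049) and 0.841 for both proteins against ADAR2 (0.790 to 0.895). PSMC1P1 held 1985, 1668 and 1112 of those reads, and without it the second ratio was 0.690 (0.619 to 0.768). PSMA6P1 had 285, 256 and 92 reads, at 0.504 times the ADAR2 level with both proteins (0.392 to 0.641). In that comparison 7 of the 28 rows had an interval below 1 and 0 above, where 23.0% of all measured genes were below and 27.5% above, a background of deeper rows than these, of which only 2 were measured. Reads of pseudogenes and of their parent genes can be split by the counting, so these rows are uncertain.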

How the data were processed

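Per the labels' protocols, total RNA was extracted with Trizol and made into libraries with a strand-marking kit. The submitters' processing notes name STAR, Picard, GATK, SAMtools and the build hg19, with no roles. The sources used here do not say which program counted the reads, or whether by strand. The authors' deposited values are raw read counts, whole numbers in 57268 rows, and columns were matched to libraries by the code in the labels. Library sizes were scaled by TMM over the 3 libraries (edgeR 4.0.16, R 4.3.3; factors 1.01, 1.01 and 0.979) and CPM is the count per 1000000 reads of scaled size. Log2 ratios used a prior count of 0.5. Ratio intervals are 95% Clopper-Pearson intervals. Other steps used Python 3.11.15, numpy 2.4.6, pandas 2.3.3, scipy 1.17.1 and matplotlib 3.10.9.

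Transcript lengths, GC content and exon sharing came from GENCODE v29 on GRCh38, not the authors' build, so no coordinates of counted genes are given. Of the 47 proteasome rows 46 matched by identifier and 1, PSMB3, by symbol. The GC trend is the median log2 ratio in 50 bins of equal gene number over protein-coding genes with a mean of 10 CPM or more, as a running mean of 5 bins. Simulated counts were used to test the calculation.

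The members, lists and thresholds were chosen with earlier results of these data known. Named in full are the 4 highest and 4 lowest ratios per comparison whose interval excludes 1, the catalytic and tissue-restricted core subunits, and the activator, inhibitor and assembly genes. From other lists, genes at 1.2-fold are named, or else the largest ratio. Genes named beyond this, such as ADRM1, POMP and UBB, were chosen after their values were seen. Alternatives tried were DESeq2 1.42.0 size factors, upper-quartile and plain totals, totals that leave out ADARB1, SRSF9 and mitochondrial genes, no filter, a mean of 10 CPM, a prior count of 5, removal of the GC trend, a mean in place of the median, a threshold of 1.5-fold, intervals lying wholly beyond 1.2-fold and the union of exons as length. Leaving out rows that share exons was added after seeing the data.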

Additional observations from a re-analysis of the deposited data

How the results depend on the processing

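With 1 library per group, no library could be left out of a group, and depth limits most the 5 rows with a mean under 1 CPM, where a few reads decide a ratio. No paired analysis was possible because each group holds 1 library and no test was run. The count of proteasome genes at 1.2-fold with an interval that left out 1 was 0 under each alternative, except with no filter on low counts. There it was 1 in ADAR2 against control (PSMD5), 1 in both proteins against ADAR2 (PSMB10) and 2 in both proteins against control (PSMD5 and PSMB10). For removal of the GC trend the interval was that of the ratio before removal, not shifted with it. By ratio alone PSMA2 was then past 1.2-fold in both proteins against control, at 0.323, so the count of 0 for that alternative depends on this choice. Without the rows that share exons the medians were 0.00, 0.05 and 0.04, an alternative chosen after seeing the data. With plain library totals the median log2 ratio was 0.0011 for both proteins against ADAR2 and -0.0074 against control. That of all genes was then -0.033 and -0.051. With the union of exons the median level was 26.9, 26.3 and 27.7 CPM per kilobase in the control, ADAR2 and last library. With the GC trend removed the log2 ratios of measured members that changed sign beyond their interval were PSMA5 (0.080), PSMC2 (0.070), PSMC6 (0.062) and PSMD10 (0.055) in ADAR2 against control, and PSMA5 (0.095), PSMC6 (0.091), PSMD12 (0.12), PSME4 (0.044), PSMC3 (-0.042) and PSMD3 (-0.040) in both proteins against control. Among the named genes run under each alternative, it moved 22 further ratios by more than their counting interval without such a change of sign, and plain totals moved 26 values. DESeq2 size factors, upper-quartile scaling, totals without mitochondrial genes, ADARB1 and SRSF9, and a prior count of 5 moved none of 69 values by more than that. The cause of these changes was not tested.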
